A study of Mus musculus with 4 samples.

Results

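The mitochondrial carrier family SLC25 comprises proteins that carry metabolites, nucleotides, cofactors and ions across the inner mitochondrial membrane, with a few members in peroxisomes or the outer mitochondrial membrane. In hepatocytes these carriers link cytosolic and mitochondrial steps of the urea cycle, gluconeogenesis, fatty acid synthesis and oxidation, and oxidative phosphorylation. Most exchange one substrate for another. Members were all genes whose mouse symbol is Slc25a followed only by a number, which gave 47 of the 37315 genes in the deposited counts. The symbol rule leaves out relatives with other names, such as the uncoupling proteins Ucp1, Ucp2 and Ucp3.

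Liver RNA was sequenced from C57BL/6 mice aged 23 weeks in 2 groups, wild type and mutant, with 2 libraries each. The mutant group carried a synonymous mutation in Foxo1, a base change that leaves the amino acid as it was. Foxo1 encodes an insulin-restrained forkhead transcription factor. The labels name neither the base changed nor the zygosity, sex or feeding of the mice. They do not say whether the libraries of a group came from separate animals, so p-values cover only the spread among these samples, which can be technical.

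Library totals ranged from 73551737 to 95908652 counts. At that depth 3 counts stand for 0.0315 to 0.0415 CPM (counts scaled to sequencing depth, with library sizes adjusted by TMM), a limit that covers counting error only. Foxo1 itself was at 44.0 and 54.8 CPM in the wild type libraries and at 33.6 and 53.4 CPM in the mutant libraries, so the groups overlapped (log2 fold change −0.18 with an SE of 0.30, edgeR adjusted p = 1.0). The 8 hepatocyte markers, Alb among them, summed to 101180 and 112837 CPM in wild type libraries, against 98074 and 95581 CPM in mutant ones. Alb made up most of each sum, and without it, a choice made after seeing the data, the other 7 summed to 29675 and 32140 against 30142 and 30798 CPM, so the groups overlapped. The list had 3 positive and 5 negative log2 fold changes (median −0.05), with 0 of 8 past the threshold (edgeR adjusted p below 0.05; 0 at an unadjusted p below 0.05, and 0 with DESeq2 and limma-voom). All 8 macrophage markers were higher in both mutant libraries, where the groups of 34.1% of all genes did not overlap in either direction. Of the 8, 5 passed the threshold in edgeR, where 0.28% of all genes passed as higher. With DESeq2 7 passed and with limma-voom 1, against 0.764% and 0.0478% of all genes in either direction. Their summed levels were 263 and 279 CPM in wild type libraries, against 398 and 465 CPM in mutant ones, with no marker at 0. Of 8 erythroid markers, 5 were tested, all 5 with positive log2 fold changes (median 0.45). Of these, 1 rose past the threshold in edgeR, 1 with DESeq2 and 0 with limma-voom. Before adjustment 3 had an edgeR p below 0.05, as did 6.19% of all genes. The list summed to 239 and 266 CPM in wild type libraries, against 296 and 335 CPM in mutant ones. Alas2 made up a large part of each sum, at 143 and 125 against 132 and 150 CPM, with overlapping groups. Epb42 was at 0 in 3 libraries. In edgeR, DESeq2 and limma-voom, 0 of 4 endothelial, 0 of 4 stellate and 0 of 4 cholangiocyte markers tested passed the threshold. The same held for 0 of 2 neutrophil, 0 of 1 striated muscle, 0 of 1 adipocyte and 0 of 1 pancreas markers. Before adjustment, 2 neutrophil markers and 1 pancreas marker had an edgeR p below 0.05, and 0 of the others, against 6.19% of all genes. For kidney, 0 markers were abundant enough to be tested. In whole tissue, fewer cells of a type and less RNA per cell cannot be told apart, and the part of these marker levels in the values of the carriers was not tested.

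Carrier transcripts took 0.296% to 0.309% of all counts in each of the 4 libraries. Their summed level was 3013 and 3049 CPM in wild type libraries, against 2985 and 3081 CPM in mutant ones, so the groups overlapped. Levels between genes were compared as CPM per kilobase of exon, mean ± SD over all 4 libraries (n = 4). On that scale the 12 most abundant carriers held 82.7% to 83.1% of the family's summed level in each library, and the same 12 led when any library was left out. The family spanned from 133 CPM per kilobase for Slc25a5 to 0 for Slc25a41 and Slc25a54. Of the 47 members, 11 had a mean of at least 100 CPM before division by length, 27 had at least 10 CPM, and 8 were below 1 CPM.

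**Figure D1:**
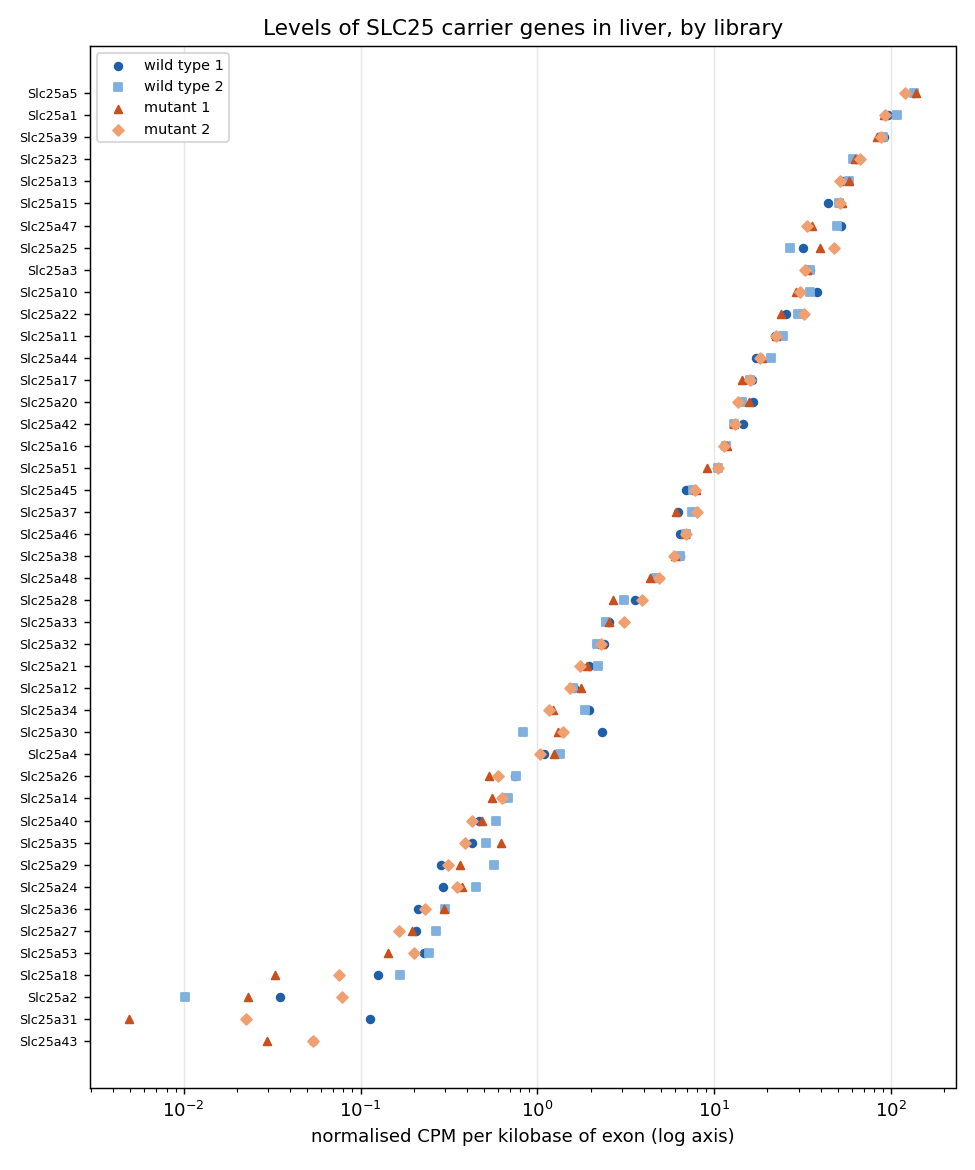
Level of the SLC25 genes with a count, as normalised CPM per kilobase of exon on a log axis, with 1 point per library (blue, wild type; orange, mutant). Means run from 133 for Slc25a5 to 0.0344 for Slc25a43; libraries with a count of 0 have no point, and Slc25a41 and Slc25a54, at 0 in all 4 libraries, are not drawn.

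Carriers that serve adenine nucleotide and phosphate exchange, the supply line of ATP synthase, were led by Slc25a5, the ADP/ATP translocase of many tissues outside heart and muscle. Slc25a5 stood at 133 ± 8.23 CPM per kilobase, the highest of the family in all 4 libraries, and its libraries held 223, 223, 228 and 198 CPM (wild type 1 and 2, then mutant 1 and 2). The heart and muscle translocase Slc25a4 was at 1.18 ± 0.138 CPM per kilobase, so Slc25a5 exceeded it 101-fold to 124-fold in the single libraries. The phosphate carrier Slc25a3 was at 33.9 ± 0.992 CPM per kilobase, with 192, 193, 186 and 181 CPM. The testis translocase Slc25a31 had 20, 0, 1 and 4 counts, so most of its counts came from wild type library 1. Among the calcium-regulated carriers that exchange ATP-Mg for phosphate, Slc25a23 was at 63.3 ± 2.52 CPM per kilobase, Slc25a25 at 36.5 ± 9.04 and Slc25a24 at 0.368 ± 0.0663. Their calcium-independent relative Slc25a41 was at 0 in all 4 libraries.

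Carriers of amino acids were led by Slc25a13 and Slc25a15, which serve the urea cycle. Slc25a13, citrin, exports aspartate in exchange for glutamate and feeds both the malate-aspartate shuttle and argininosuccinate synthesis. It was at 55.1 ± 3.33 CPM per kilobase, and it was 32.6-fold to 36.6-fold above the muscle and brain form Slc25a12, at 1.62 ± 0.101. Slc25a15, which exchanges ornithine for citrulline in the urea cycle, was at 49.6 ± 3.89 CPM per kilobase, with 247, 285, 296 and 289 CPM. Its relative Slc25a2 had 4, 1, 3 and 9 counts. Of the glutamate carriers, Slc25a22 was at 27.9 ± 3.97 CPM per kilobase and Slc25a18 at 0.100 ± 0.0584, or 20, 23, 6 and 12 counts. Slc25a44, a carrier of branched-chain amino acids, was at 18.8 ± 1.60, the glycine carrier Slc25a38 at 6.19 ± 0.289 and Slc25a29, a carrier of basic amino acids, at 0.383 ± 0.128 CPM per kilobase.

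The carboxylate carriers were all expressed. Slc25a1, which exports citrate for cytosolic acetyl-CoA and lipid synthesis, was at 96.9 ± 7.45 CPM per kilobase, with 208, 233, 197 and 199.7 CPM. The dicarboxylate carrier Slc25a10 was at 33.0 ± 4.16, the oxoglutarate-malate carrier Slc25a11 at 22.8 ± 1.15 and the oxodicarboxylate carrier Slc25a21 at 1.95 ± 0.188 CPM per kilobase. Carnitine and acylcarnitine exchange by Slc25a20, which brings long-chain fatty acids in for oxidation, stood at 15.1 ± 1.26. Slc25a47, a carrier found mainly in hepatocytes, was at 42.7 ± 9.46 CPM per kilobase, 6.88-fold to 11.3-fold above Slc25a48 and 4.26-fold to 7.52-fold above Slc25a45.

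Iron and glutathione carriers were led by the glutathione carrier Slc25a39, with 87.7 ± 3.34 CPM per kilobase and 154-fold to 205-fold above its paralog Slc25a40. The mitoferrins, which import iron for haem and iron-sulphur clusters, were at 6.98 ± 0.935 for Slc25a37 and 3.30 ± 0.531 for Slc25a28, a ratio of 1.76 to 2.45 in the single libraries. Slc25a37 is the erythroid mitoferrin, and the erythroid marker sums are given above. Slc25a37 was at 37.8 and 45.3 CPM in wild type libraries, against 36.8 and 48.3 CPM in mutant ones. Among carriers of nucleotides, cofactors and vitamins, the peroxisomal carrier Slc25a17 led at 15.6 ± 0.895 CPM per kilobase. The coenzyme A carrier Slc25a42 followed at 13.4 ± 0.811, Slc25a16 at 11.6 ± 0.264 and the NAD carrier Slc25a51 at 10.1 ± 0.653. The pyrimidine nucleotide carrier Slc25a33 was at 2.66 ± 0.281 and the folate and flavin carrier Slc25a32 at 2.29 ± 0.0820 CPM per kilobase. The S-adenosylmethionine carrier Slc25a26 was at 0.660 ± 0.112 and the other pyrimidine nucleotide carrier Slc25a36 at 0.260 ± 0.0449. The uncoupling-protein-like genes Slc25a30, Slc25a14 and Slc25a27 were at 1.46 ± 0.615, 0.629 ± 0.0525 and 0.208 ± 0.0433 CPM per kilobase. Slc25a46, which sits in the outer membrane, was at 6.75 ± 0.252, and the orphan genes Slc25a34, Slc25a35, Slc25a53 and Slc25a43 at 1.55 ± 0.411, 0.490 ± 0.103, 0.204 ± 0.0440 and 0.0344 ± 0.0256 CPM per kilobase.

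**Figure D2:**
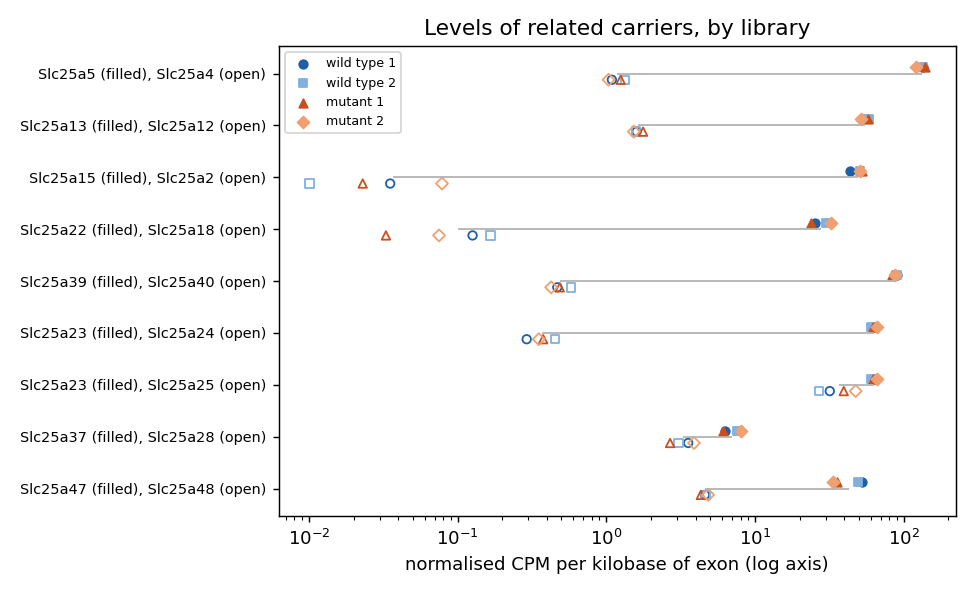
Levels of related carriers in each library, as normalised CPM per kilobase of exon on a log axis, with the first gene of a pair filled, the second open and a grey line joining their means. Slc25a5 lies 101-fold to 124-fold above Slc25a4, whereas Slc25a37 lies 1.76-fold to 2.45-fold above Slc25a28.

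Neighbouring ranks were often closer than the spread between libraries. Ranks 1 to 5 were held by Slc25a5, Slc25a1, Slc25a39, Slc25a23 and Slc25a13 in this order in all 4 libraries. The order depends on the length used: with the longest transcript in place of all exons, Slc25a39 stood at rank 2, Slc25a1 at 3, Slc25a25 at 5 and Slc25a13 at 7. Slc25a3 and Slc25a10, at ranks 9 and 10, differed by less than the SD of Slc25a10, and Slc25a17 and Slc25a20, at ranks 14 and 15, by less than the SD of either. Slc25a25 stood at ranks 10 and 11 in the wild type libraries and at rank 7 in both mutant libraries. Slc25a47 stood at ranks 6 and 7 in wild type and at rank 8 in both mutant libraries, so the order of these carriers was opposite in the groups. Per kilobase, Slc25a47 was at 50.7 ± 2.14 and Slc25a25 at 29.4 ± 3.49 in wild type (n = 2), against 34.6 ± 1.76 and 43.6 ± 5.68 in mutant liver (n = 2).

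Some abundant carriers lay next to members with few or no counts (GENCODE M21, build GRCm38, which is mm10). Adjacent members with no protein-coding gene between them formed 4 pairs. On chromosome 17, Slc25a23 lay 2.06 kb from Slc25a41 on the same strand, at 63.3 against 0 CPM per kilobase. On chromosome X, Slc25a5 lay 18.4 kb from Slc25a43 on the same strand, at 133 against 0.0344 CPM per kilobase. On chromosome 3, Slc25a24 lay 6.46 kb from Slc25a54 on the same strand, at 0.368 against 0. On chromosome 12, the annotated gene bodies of Slc25a29 and Slc25a47 lay 162 bases apart on opposite strands, at 0.383 against 42.7 CPM per kilobase. The RefSeq start of Slc25a47 is far inside its GENCODE gene body, 15.3 kb from that of Slc25a29, and gene counts do not show which start was used.

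Setting mutant against wild type liver addressed which carriers differed with the Foxo1 mutation. Of the 47 members, 42 were abundant enough to be tested and 1 of these, Slc25a47, fell past the threshold, whereas 0 rose (edgeR, adjusted by Benjamini-Hochberg over all genes). Over all 14657 genes tested, 0.341% passed that threshold, 0.0614% as lower and 0.28% as higher in mutant liver. DESeq2 called Slc25a47 and Slc25a25, with 0.764% of all genes called, and limma-voom called 0 members, with 0.0478%. Without adjustment 4 members had a p below 0.05, Slc25a47, Slc25a25, Slc25a34 and Slc25a10 (9.52% of those tested, against 6.19% of all genes). Of all genes 2.22% had such a p and were lower in mutant liver, as were 3 of these 4 members. The groups did not overlap in 18 of the 42 tested members, 14 lower and 4 higher in mutant liver, or 42.9% against 34.1% of all genes. Of all genes 17% did not overlap and were lower. The log2 fold change was negative in 28 of the 42, where 50.3% of all genes were negative. The median log2 fold change of the tested members was −0.07, against −0.0013 over all genes tested, and in the 27 with a mean of at least 10 CPM it was −0.03.

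**Figure D3:**
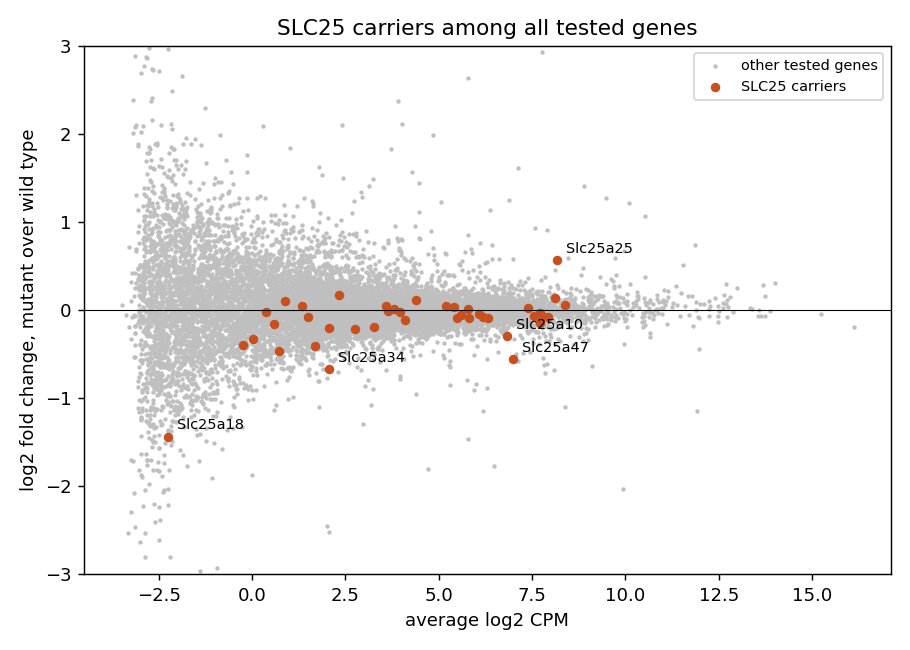
Log2 fold change of mutant over wild type against average log2 CPM for the tested genes, with SLC25 genes in orange. Slc25a47 (−0.55) and Slc25a25 (0.57) lie away from zero at high abundance, and Slc25a18 (−1.44) lies low where counts are few; 15 tested genes with a log2 fold change beyond 3 in size are outside the axis.

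Slc25a47 (ENSMUSG00000048856, chromosome 12, 108836046 to 108856815, plus strand) was at 156 and 147 CPM in the wild type libraries and at 107 and 99.5 CPM in the mutant libraries. Both mutant libraries lay below both wild type libraries, and the replicates of each group differed 1.06-fold and 1.07-fold. The means were 151 ± 6.39 and 103 ± 5.26 CPM (SD, n = 2), a log2 fold change of −0.55 with an SE of 0.10 and a 95% confidence interval of −0.76 to −0.35 (edgeR adjusted p = 0.0352). The call depended on the test and was lost with any library left out. Leaving out a library leaves no replicate in its group, and most of the 50 genes past the threshold in edgeR were then lost too. The sum of all 8 hepatocyte markers was lower in both mutant libraries, as given above. Without Alb, a choice made after seeing the data, the sums overlapped between the groups. The macrophage marker sums were higher in both mutant libraries. The part of either marker list in the result was not tested. The adjusted p was 0.000141 with DESeq2, 0.101 with limma-voom, 0.105 without robust estimation and 0.0541 where genes needed 1 CPM in 2 libraries. With each library left out in turn it was 0.192 to 0.454, although the log2 fold change stayed between −0.61 and −0.50. Over the alternatives the adjusted p ranged from 3.35e-05 to 0.454. Exons of Slc25a47 share 5 bases with Mir345 and no 100-base stretch with any other annotated transcript. The other 3 members of its list did not pass in edgeR (0 with DESeq2 and limma-voom, and 0 below 0.05 before adjustment). Slc25a20 was at 79.8 and 69.9 CPM in wild type libraries, against 76.2 and 66.2 CPM in mutant ones, Slc25a45 at 19.2 and 21.0 against 21.8 and 21.6 CPM, and Slc25a48 at 15.6 and 15.7 against 14.6 and 16.3 CPM. The groups of Slc25a20 and Slc25a48 overlapped.

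Slc25a25 (ENSMUSG00000026819, chromosome 2, 32414487 to 32451445, minus strand) had the largest positive log2 fold change of the tested members. It was at 251 and 212 CPM in the wild type libraries and at 311 and 374 CPM in the mutant libraries. The groups did not overlap, and the spread within each group was wider than for Slc25a47. The log2 fold change was 0.57 with an SE of 0.12 and an interval of 0.30 to 0.83, and it missed the threshold in edgeR (adjusted p = 0.118). It passed with DESeq2 (adjusted p = 0.00278) and in edgeR with no filter on low counts (2.67e-05), and over the alternatives its adjusted p ranged from 2.67e-05 to 0.794. Its exons share 379 bases with Naif1 on the opposite strand, and Naif1 was at 4.35 CPM in wild type libraries, against 4.39 CPM in mutant ones. Reads in shared bases could be dropped from both genes, so the Naif1 values do not show how far the Slc25a25 count was affected. The other calcium-regulated forms, Slc25a23 and Slc25a24, had log2 fold changes of 0.06 and −0.02, and the groups of each overlapped.

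Slc25a34 (ENSMUSG00000040740, chromosome 4, 141618824 to 141623821, minus strand), a carrier without a settled substrate, was at 5.21 and 4.98 CPM in wild type libraries, against 3.29 and 3.12 CPM in mutant ones. Its groups did not overlap, but its log2 fold change of −0.67 (SE 0.17, interval −1.05 to −0.29) did not pass the threshold (edgeR adjusted p = 0.217). Slc25a10 (ENSMUSG00000025792, chromosome 11, 120491840 to 120499187, plus strand) exchanges malate or succinate for phosphate. It was at 132 and 119.6 CPM in wild type libraries, against 99.7 and 106 CPM in mutant ones, with groups that did not overlap. Its log2 fold change was −0.29 (SE 0.10, interval −0.50 to −0.08, edgeR adjusted p = 0.460).

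**Figure D4:**
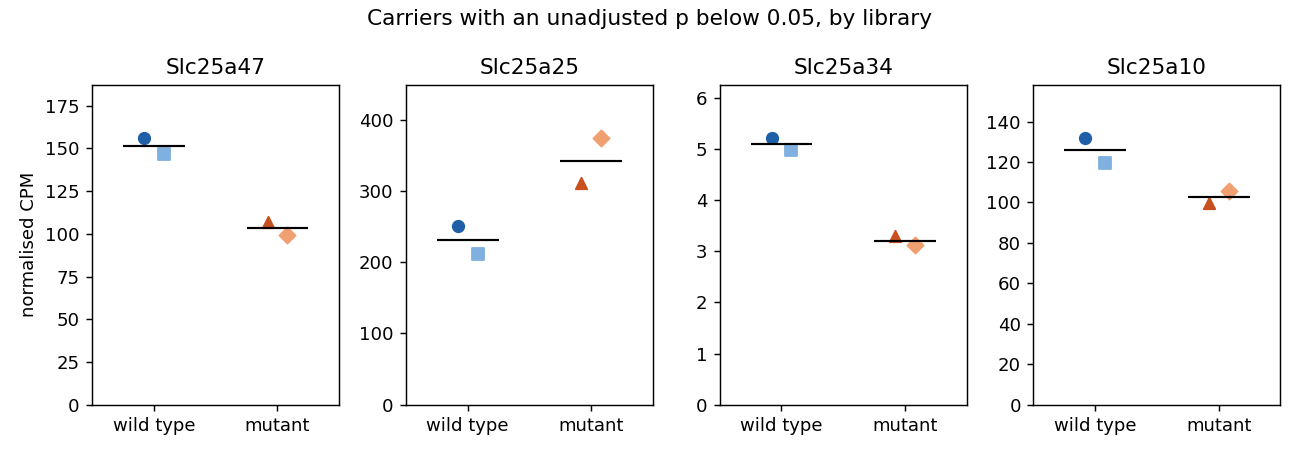
Normalised CPM of Slc25a47, Slc25a25, Slc25a34 and Slc25a10 in each library, with each axis starting at 0, 1 point per library and a line at the group mean (n = 2). Slc25a47 falls from about 151 to 103 CPM and Slc25a25 goes from 231 to 343 CPM. The groups do not overlap in these 4 genes, which were picked by an unadjusted edgeR p below 0.05. Among all genes tested, the groups do not overlap in 34.1%.

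The sequence before the RefSeq start of these 4 genes is shown because they were the members with an unadjusted p below 0.05. Each line holds the 250 bases before the start, 5′ to 3′ on the strand of the gene, from RefSeq on build GRCm38.p6. Capitals mark the nuclear receptor half-site AGGTCA and the CCAAT box on either strand, the only searched motifs found in these windows. The windows are chr12:108850879-108851128 (plus strand), chr2:32451471-32451720 (minus), chr4:141623835-141624084 (minus) and chr11:120491587-120491836 (plus).
Slc25a47: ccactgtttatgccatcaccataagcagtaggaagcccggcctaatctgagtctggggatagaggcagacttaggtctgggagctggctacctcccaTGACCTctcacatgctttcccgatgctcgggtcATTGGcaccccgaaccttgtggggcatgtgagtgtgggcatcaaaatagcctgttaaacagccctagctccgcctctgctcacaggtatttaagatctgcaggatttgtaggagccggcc
Slc25a25: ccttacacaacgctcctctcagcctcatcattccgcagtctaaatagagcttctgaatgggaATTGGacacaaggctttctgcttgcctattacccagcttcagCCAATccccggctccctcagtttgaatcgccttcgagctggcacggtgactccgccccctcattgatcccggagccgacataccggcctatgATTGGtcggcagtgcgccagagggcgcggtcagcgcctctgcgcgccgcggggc
Slc25a34: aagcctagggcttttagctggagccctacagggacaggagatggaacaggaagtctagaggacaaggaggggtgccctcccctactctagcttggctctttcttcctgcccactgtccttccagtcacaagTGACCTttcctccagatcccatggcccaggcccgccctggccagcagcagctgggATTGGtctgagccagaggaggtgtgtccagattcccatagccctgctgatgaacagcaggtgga
Slc25a10: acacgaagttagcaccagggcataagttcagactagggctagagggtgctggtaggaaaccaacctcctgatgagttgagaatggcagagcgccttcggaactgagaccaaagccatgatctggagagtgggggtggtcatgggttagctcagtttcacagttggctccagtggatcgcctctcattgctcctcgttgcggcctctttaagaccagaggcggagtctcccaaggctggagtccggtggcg

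The windows of Slc25a47 and Slc25a34 each held 1 nuclear receptor half-site and 1 CCAAT box, both on the reverse strand, whereas that of Slc25a25 held 3 CCAAT boxes and that of Slc25a10 held none of the searched motifs. RefSeq lists 3 starts for Slc25a25, of which the outermost is shown. A window was found for 36 of the 47 members. The forkhead motif, searched only as the exact letters GTAAACA, was present in 0 of these 36, against 3.17% of all 32851 windows of this length. Other spellings of a forkhead site were not searched, so this count does not show that the windows lack such sites. The nuclear receptor half-site was present in 4 of 36 members, or 11.1% against 14.0% of all windows, and the CCAAT box in 16 of 36, or 44.4% against 33.8%. The E-box CACGTG was in 6 (16.7% against 6.02%), the cAMP response half-site TGACG in 8 (22.2% against 17.8%) and the TATA box TATAAA in 1 (2.78% against 12.4%). Both strands were searched, no listed motif is part of another, and a match is a description of letters in this window.

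Most of the other members had small fold changes. Among the 42 tested members, 32 had a log2 fold change smaller than 0.2 in size, and in 29 the 95% confidence interval lay within a 1.5-fold change in either direction. The abundant carriers of energy and urea cycle metabolism were among them. Slc25a5, Slc25a3, Slc25a13 and Slc25a15 had log2 fold changes of −0.06, −0.07, −0.03 and 0.13, with intervals of −0.29 to 0.16, −0.27 to 0.14, −0.25 to 0.20 and −0.10 to 0.36. Slc25a1 and Slc25a39 were lower in both mutant libraries, with log2 fold changes of −0.15 (interval −0.37 to 0.07) and −0.08 (−0.29 to 0.13), and did not pass (edgeR adjusted p of 0.971 and 1.0). Slc25a23 and Slc25a11 had values of 0.06 and −0.06, and Slc25a17 and Slc25a46 of −0.09 and 0.05, with overlapping groups in each. Slc25a22 was at 153 and 179 CPM in wild type libraries, against 142 and 194 CPM in mutant ones, so the mutant libraries enclosed the wild type ones.

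By function, all 4 carboxylate carriers had negative log2 fold changes (median −0.17), and all 3 uncoupling-protein-like genes did (median −0.22, the value of Slc25a30, whose sign turned without wild type replicate 1), with 0 members of either list past the threshold in edgeR, DESeq2 and limma-voom, and with 1 and 0 below 0.05 before adjustment. The list of adenine nucleotide and phosphate carriers had 2 positive and 4 negative values, the amino acid list 3 and 5, the cofactor list 5 and 4, and the iron and glutathione list 1 and 3. In these lists 0 members passed in edgeR or limma-voom, 1, 0, 0 and 0 with DESeq2, and 1, 0, 0 and 0 had a p below 0.05 before adjustment. The outer membrane and orphan list had 2 positive and 2 negative values, with 0 past the threshold in the 3 tools and 1 at an unadjusted p below 0.05.

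**Figure D5:**
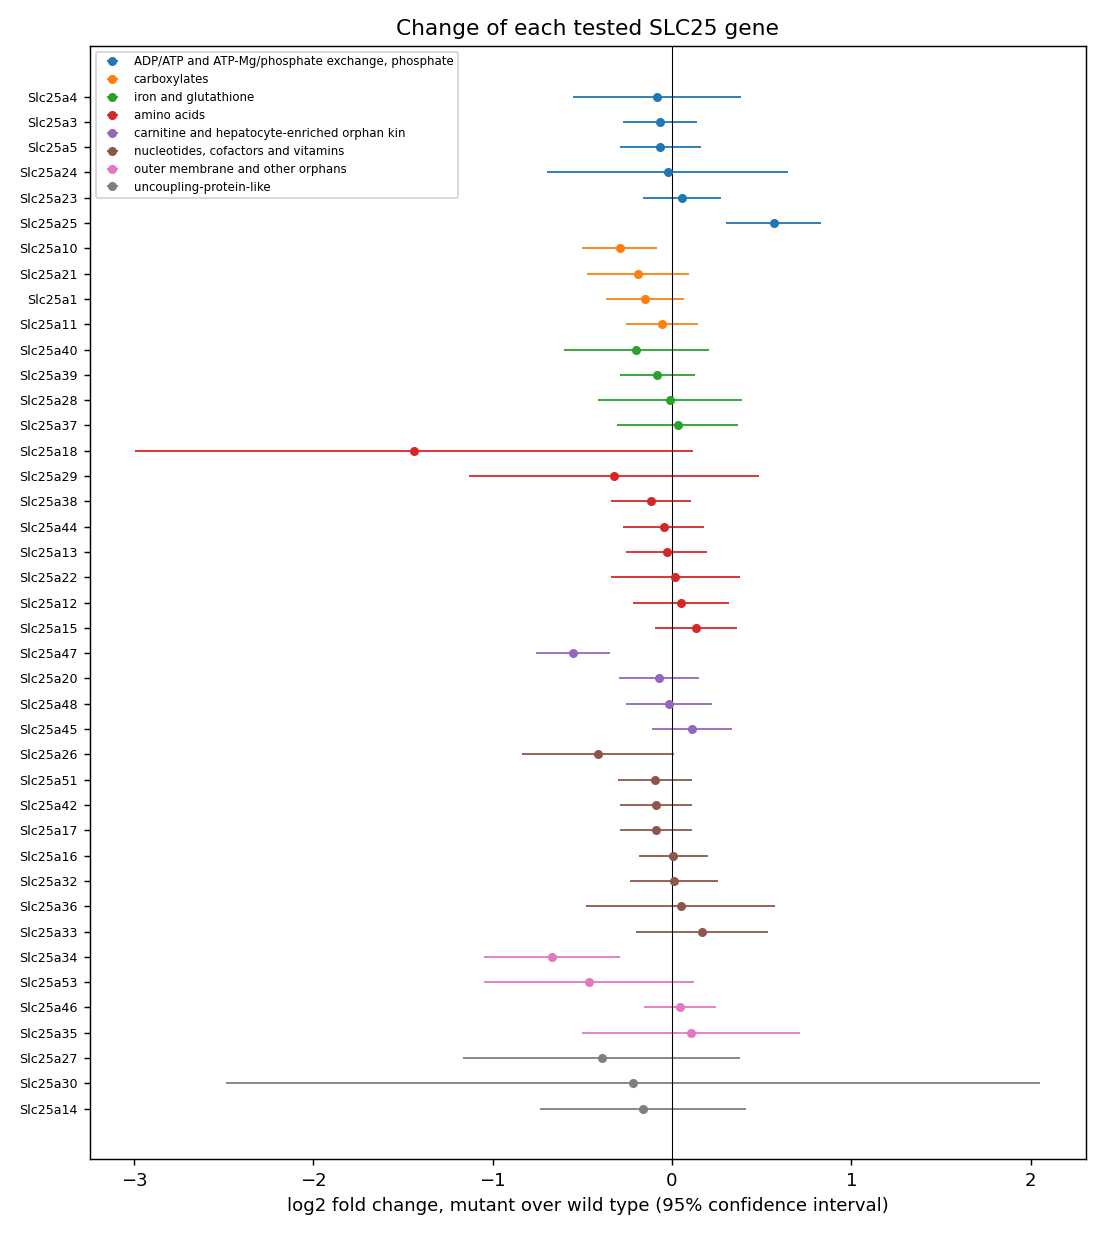
Log2 fold change of mutant over wild type for tested SLC25 genes, coloured by function, with bars for the 95% confidence interval of the edgeR fit. The intervals of Slc25a47, Slc25a34 and Slc25a10 lie below 0 and that of Slc25a25 above 0; intervals are widest for Slc25a30 and Slc25a18.

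Less abundant members gave larger but less certain values. Slc25a26 was at 3.61 and 3.64 CPM in wild type libraries, against 2.55 and 2.89 CPM in mutant ones (log2 fold change −0.41 with an SE of 0.19, edgeR adjusted p = 0.829). Slc25a53 was at 1.82 and 1.94 against 1.15 and 1.59 CPM (−0.46, SE 0.27, edgeR adjusted p = 0.944). The groups of both genes did not overlap. Slc25a33 was also among the 4 largest positive values, with a log2 fold change of 0.17 (SE 0.17). Slc25a18 had the most negative value, −1.44, with an SE of 0.72 and an interval of −2.99 to 0.12, on 6 to 23 counts per library. Slc25a30 was the least even of the tested members in wild type liver, at 10.5 and 3.81 CPM, a 2.77-fold difference between replicates, while the mutant libraries held 5.97 and 6.42 CPM. It had a log2 fold change of −0.22 (SE 0.64), which became 0.70 without wild type replicate 1 and −0.77 without wild type replicate 2. Slc25a29 differed 1.98-fold between the wild type replicates, at 0.748 and 1.48 CPM.

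The 5 members that were not tested were Slc25a2, Slc25a31, Slc25a43, Slc25a41 and Slc25a54. Slc25a43 had 8, 0, 5 and 8 counts. A count of 0 in a library allows up to 0.0315 to 0.0415 CPM for Slc25a41 and Slc25a54. For a few members the counts are less certain because of shared sequence. Exons of 14 members overlap those of another gene, most on the opposite strand, and the libraries were made without strand marks. The largest overlap was in Slc25a35, with 31.3% of its exon bases shared with Rangrf, which was counted at 0.00603 CPM in wild type liver. Reads in shared bases could be dropped from both genes. This low value therefore does not show how far the Slc25a35 count was affected. Of the distinct 100-base stretches of Slc25a5, 8.33% also occur in other annotated transcripts, and 29 of the 47 members share none.

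Other genes of mitochondrial transport were read from lists of relatives, import components, other transporters and enzymes. Of the relatives outside the symbol rule, 5 were in the counts and 3 were tested. Mtch2 and Mtch1, outer membrane proteins of the same fold, were at 14.9 and 7.16 CPM per kilobase, and Ucp2 was at 18.9 and 17.5 CPM in wild type libraries, against 19.4 and 23.7 CPM in mutant ones. The brown fat uncoupling protein Ucp1 was at 0 in all 4 libraries. The import route that inserts carriers into the inner membrane had 13 tested genes, led per kilobase by the small chaperone Timm8b (27.9) and the receptor Tomm22 (12.9). Other transporters of the mitochondrial membranes had 18 tested genes, led by the outer membrane channel Vdac1 (49.3 CPM per kilobase) and the calcium uniporter subunit Smdt1 (17.5). In the lists of relatives, import genes and other transporters, 0, 0 and 0 genes passed the threshold in edgeR, DESeq2 and limma-voom, with 0, 0 and 0 below 0.05 before adjustment, against 0.341% of all genes past the edgeR threshold. Their log2 fold changes had medians of 0.0004, 0.03 and −0.05.

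Enzymes on either side of the carriers had 23 tested genes with a median log2 fold change of −0.05. The urea cycle enzymes Ass1 and Cps1 led at 1987 and 976 CPM per kilobase, with 3907 and 5914 against 4746 and 4619 CPM for Ass1, so its groups overlapped. In this list 0 genes passed in edgeR and limma-voom and 1 with DESeq2, also the only one with a p below 0.05 before adjustment. This gene, named after its values were seen, was Gpd2, the mitochondrial enzyme of the glycerol phosphate shuttle. It was at 28.7 and 24.6 CPM in wild type libraries, against 17.6 and 19.8 CPM in mutant ones (log2 fold change −0.51, SE 0.11, edgeR adjusted p = 0.122, DESeq2 adjusted p = 0.0369). The enzymes of the malate-aspartate shuttle, Got1, Got2, Mdh1 and Mdh2, had log2 fold changes of 0.08, −0.08, −0.09 and −0.04.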

How the data were processed

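Liver poly(A) RNA was sequenced as paired reads from an unstranded TruSeq library, per the labels' protocols. The deposited values are whole read counts per Ensembl gene, unnormalised, and the submitters' processing notes name TopHat2 2.1.1, HTSeq 0.6.0 and mm10. No counting mode, strand setting or annotation release is given there, so reads of overlapping genes could be split or dropped in ways not seen in the counts.

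Library totals were 73551737 to 95908652 counts over 37315 genes, and no column of another sample was present. Genes were kept with filterByExpr (minimum count 10), scaled by TMM and fitted with edgeR 4.0.16 (robust quasi-likelihood, R 4.3.3), with p-values adjusted by Benjamini-Hochberg over 14657 genes. The fit was tested on simulated data. The SE is the log2 fold change divided by the square root of F. DESeq2 1.42.0 and limma 3.58.1 (voom), RLE scaling, other filters, a fit without robust estimation, a replicate block and leaving out each library were the alternatives. Levels per kilobase used union exon length in GENCODE M21, which paired 35449 identifiers with a symbol. Promoter windows came from RefSeq.

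Members and lists were chosen with earlier results of these data known. Members described with their tests were those past the threshold, those with an unadjusted p below 0.05, the 12 highest per kilobase, the 4 highest and 4 lowest log2 fold changes at a mean of at least 1 CPM, and the highest of each functional list. Other members were given by level, with values where they belong to a described pair or list. The values of 1 member are not reported here or drawn in the figures; it is included in the counts and medians.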

Additional observations from a re-analysis of the deposited data

How the results depend on the processing

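The 50 genes past the threshold became 258 with no filter, 24 with a filter of 1 CPM in 2 libraries, 112 with DESeq2, 7 with limma-voom and 8 without robust estimation. With 1 library left out there were 3 to 17, of which 0 to 7 were among the 50. The 1 SLC25 member called, Slc25a47, became 2 members with no filter and with DESeq2 (Slc25a47 and Slc25a25), and 0 with the filter of 1 CPM, limma-voom, no robust estimation and each library left out (0 to 0). RLE scaling changed no call among the members. With a replicate block, 111 genes passed, 49 of them among the 50, and 1 member did, Slc25a47 (adjusted p = 0.00847). The labels do not say that the numbers pair samples, and deviations of same-numbered libraries had a correlation of −0.0072. The family's median log2 fold change of −0.07 ranged from −0.10 to −0.043 with 1 library left out, the lowest without mutant replicate 2. Leaving out a library turned the sign of small log2 fold changes, which ranged from −0.17 to 0.031 for Slc25a5, −0.11 to 0.049 for Slc25a13, −0.23 to 0.22 for Slc25a22, −0.13 to 0.023 for Slc25a11, −0.011 to 0.10 for Slc25a46 and −0.77 to 0.70 for Slc25a30. The cause was not tested. The 12 highest members per kilobase were the same 12 with the longest transcript as length and with any library left out. Groups of 2 limit what can be called. The common spread between libraries of a group, beyond counting error, came to 13.1% and can be technical. Log2 fold changes had a median SE of 0.11 among the members and 0.15 over all genes.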
